A study of Mus musculus with 12 samples.

Results

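The genes described here encode the receptors through which glutamate, GABA and glycine act on neurons, as measured by RNA-seq in the brains of newborn mice. They were taken by symbol from the 2 tables the authors deposited, 1 for cortex and 1 for subcortex, and number 54 of the 23983 entries in each table. Of these, 52 are receptor subunit genes: 4 of AMPA, 5 of kainate, 2 of delta, 7 of NMDA and 8 of metabotropic glutamate receptors, 16 of GABA-A receptors and 3 of their rho group, 2 of GABA-B and 5 of glycine receptors. The other 2 match by symbol only and encode no subunit: a scaffold protein gene, and Grin1os, a transcript antisense to Grin1.

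The series holds 12 libraries in 4 groups of 3, from cortex and from subcortex at postnatal day 0, on a strain labelled Mixed. Control mice are labelled Wild type (WT). The others are labelled Reck vascular KO (vKO below), written as Reck flex2/Δex1; Tie2Cre. Tie2Cre drives recombination in endothelial cells and in blood lineages, so Cre is not aimed at neurons, and the samples are whole tissue. As written, Δex1 is an allele already deleted, so all cells of vKO mice, neurons among them, may carry it. Its part cannot be told apart from that of the Cre deletion. Each gene has 1 value per group, in FPKM (fragments scaled by transcript length and by the number of mapped fragments), which the authors computed over the 3 replicates. The values thus come without a spread between replicates, and library depth is unknown. A gene is said to have fallen or risen only where its q-value in the authors' deposited table for that tissue was under 0.05. Log2 ratios are log2((vKO FPKM + 1)/(WT FPKM + 1)). Adding 1 makes changes of low genes look smaller.

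Glutamate opens AMPA, kainate and NMDA receptors, which are cation channels built of several subunits, and it also binds metabotropic receptors that signal through G proteins. GABA and glycine open chloride channels, and GABA-B receptors are the metabotropic receptors of GABA. Around birth the NMDA receptors of the forebrain are rich in the subunit encoded by Grin2b, glycine receptors contain mainly the alpha subunit encoded by Glra2, and GABA can still depolarise immature neurons because their chloride level is high.

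Promoter sequences from RefSeq (build GRCm38.p6) are shown for 4 genes on which the results below turn: Glra2, the member called in both tissues, Grin1 and Grik5, called in cortex, and Gria2, the most abundant glutamate receptor gene, which was not called. They were picked after the values were seen. Each is the 250 bases before the start site, read 5′ to 3′ on the strand of the gene, which is the minus strand for all 4: chrX:165327394-165327643 for Glra2, chr2:25319188-25319437 for Grin1, chr7:25072370-25072619 for Grik5 and chr3:80802836-80803085 for Gria2. Capitals mark matches, on either strand, to the GC box GGGCGG that Sp factors bind, to the TATA box TATAAA near which transcription starts, to the E-box CACGTG, or to the core of RE1, the element bound by the neuronal repressor REST, searched with its middle 3 bases left free. No match overlaps another.
Glra2: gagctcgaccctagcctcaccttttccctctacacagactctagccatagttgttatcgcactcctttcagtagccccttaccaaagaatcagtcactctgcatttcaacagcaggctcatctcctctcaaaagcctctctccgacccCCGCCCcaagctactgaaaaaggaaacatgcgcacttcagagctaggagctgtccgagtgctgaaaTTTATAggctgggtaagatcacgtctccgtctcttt
Grin1: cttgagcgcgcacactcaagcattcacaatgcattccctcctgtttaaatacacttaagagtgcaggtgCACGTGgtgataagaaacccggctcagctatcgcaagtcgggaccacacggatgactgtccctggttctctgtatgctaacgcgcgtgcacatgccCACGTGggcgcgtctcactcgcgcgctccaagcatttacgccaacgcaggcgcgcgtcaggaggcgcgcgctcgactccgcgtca
Grik5: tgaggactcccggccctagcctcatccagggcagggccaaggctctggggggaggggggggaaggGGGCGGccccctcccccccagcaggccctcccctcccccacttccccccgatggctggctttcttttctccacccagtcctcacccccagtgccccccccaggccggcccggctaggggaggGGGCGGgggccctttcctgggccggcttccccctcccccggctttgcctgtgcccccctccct
Gria2: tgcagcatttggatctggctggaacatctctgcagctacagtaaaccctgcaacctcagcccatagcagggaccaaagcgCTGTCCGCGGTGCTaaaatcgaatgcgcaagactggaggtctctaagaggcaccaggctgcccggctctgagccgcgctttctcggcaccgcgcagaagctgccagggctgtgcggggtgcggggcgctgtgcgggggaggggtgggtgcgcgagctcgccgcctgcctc
Glra2 held 1 GC box and 1 TATA box, Grin1 2 E-boxes, Grik5 2 GC boxes and Gria2 the RE1 core. Among all 32851 promoters of the RefSeq table, over the same 250 bases, 32.7% held a GC box, 12.4% a TATA box, 6.02% the E-box and 0.0639% the RE1 core. CCAAT (33.8% of all promoters) and the cyclic AMP element TGACGTCA (1.55%) were searched too and matched none of the 4. Promoters were found for 38 of the 54 members, 13 of them among the genes called lower in cortex. Of the 38, 21 held a GC box, 4 a TATA box, 17 a CCAAT box, 1 the E-box and 1 the RE1 core. Of the 13, 9 held a GC box, 1 a TATA box, 2 a CCAAT box and 1 the E-box. Members were counted per gene, with a match in any of its promoters, while the percentages above are per promoter. A gene with several promoters matches more easily, so the 2 measures are not alike. These matches describe the letters in these windows and are not shown to be bound sites.

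Some facts of the whole series touch the receptor results. Listed markers of the tissues, all but Isl1, were higher in the WT group of their own tissue. Emx1 stood at 13.3 FPKM in WT cortex and 0.106 in WT subcortex, and Tcf7l2, of thalamus, at 4.71 and 37.0. Isl1, listed for subcortex, went the other way, at 9.53 and 4.87 FPKM. In vKO cortex Tcf7l2 fell to 1.07 FPKM. Reck itself was not called in either tissue. The labels give no sex. The X-inactivation transcript Xist had 0.0417 FPKM in the WT group of cortex against 18.6 for vKO, and 0.0369 against 10.2 in subcortex. The Y-linked genes Eif2s3y (30.4 to 15.8 FPKM), Kdm5d and Uty fell in vKO cortex. In subcortex Eif2s3y (27.6 to 13.3) and Uty fell, Kdm5d was not called, and Ddx3y was called in neither tissue. A difference in the sexes pooled per group thus cannot be told apart from genotype in any comparison of vKO with WT below. In vKO cortex 7 of 8 microglial markers rose (summed level from 49.4 to 123 FPKM), as did 3 of 8 progenitor markers (from 213 to 298), and 3 of 6 endothelial markers fell (from 84.6 to 54.9). In subcortex 2 of the 6 endothelial markers rose, Pecam1 from 5.12 to 10.1 FPKM and Cdh5 from 3.62 to 6.45, and none fell. In cortex the erythroid markers, of which 5 of 8 were found, summed to 20.3 FPKM in WT against 685 for vKO, with 1 of 3 tested called higher. In subcortex they summed to 29.5 and 77.7 FPKM, with 0 of 3 called. Over all tested genes, 11.3% were called lower and 8.15% higher in cortex, and 0.262% and 0.451% in subcortex. The part of these marker shifts in the receptor results was not tested.

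In WT brain, receptor genes differed widely in level. FPKM is scaled by transcript length, so levels of different genes can be set side by side within a table. Gria2, the AMPA receptor subunit that makes the channel largely impermeable to calcium, was highest in cortex at 155 FPKM, followed by Gabbr1 at 77.3, an obligatory part of the GABA-B receptor. Also high were Grin2b at 50.6, Gria1 at 50.3, Grm5 at 47.3 and Grik2 at 46.1 FPKM. In subcortex Gabbr1 led at 111 FPKM, before Gria2 at 98.9 and Gria4 at 59.6. Without replicate values it cannot be said which neighbours in these orders differ. At the low end, 11 members stayed under 1 FPKM in all 4 groups and were tested in neither tissue: Grin2c, Grin3b, Grm6, Gabra6, Gabre, Gabrp, Gabrr1, Gabrr2, Gabrr3, Glra4 and the scaffold protein gene, the highest value among them being 0.955 FPKM. Several of these are known from other places, Gabra6 and Grin2c from cerebellar granule cells and Grm6 and the rho subunits from retina. Gabra6 and Gabrr3 were listed at 0 in both cortex groups.

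The receptors of the WT tissues differed most in Glra1, the alpha subunit of adult glycine receptors in brainstem and spinal cord, which stood at 0.0559 FPKM in cortex and 2.40 in subcortex. Gabrd, the delta subunit of extrasynaptic GABA-A receptors, went the other way, with 1.89 FPKM in cortex and 0.0948 in subcortex. Of the 43 members with at least 1 FPKM in at least 1 WT group, 14 were at least 1.5-fold higher in subcortex, where 17% of all genes at that level were, and 8 were at least 1.5-fold higher in cortex, against 11.3% of all genes. The 2 tables were normalized separately by the authors, there is no test between them, and these folds are descriptions. Grin2b was 2.73-fold higher in WT cortex, at 50.6 against 18.5 FPKM. Grin2d, an NMDA receptor subunit of midbrain and interneurons, was 2.48-fold higher in WT subcortex, at 8.77 against 3.53 FPKM. Among AMPA receptor genes, Gria1 was 1.95-fold and Gria2 1.57-fold higher in cortex, while Gria4 was 1.82-fold higher in subcortex. Also higher in subcortex were Gabrg1 (5.93 against 17.0 FPKM), Glra3 (1.94 against 5.64), Gabrq (0.940 against 2.73) and Gabra3 (16.0 against 30.5). Grik3 (17.6 in cortex against 9.23 in subcortex), Grik5 (37.1 against 24.7), Gria3 (17.4 against 11.6) and Grm2 (5.90 against 3.71) were higher in cortex. Gabrb2 and Gabra5 stood at nearly the same level in both, Gabra5 at 26.6 FPKM in each.

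**Figure D1:**
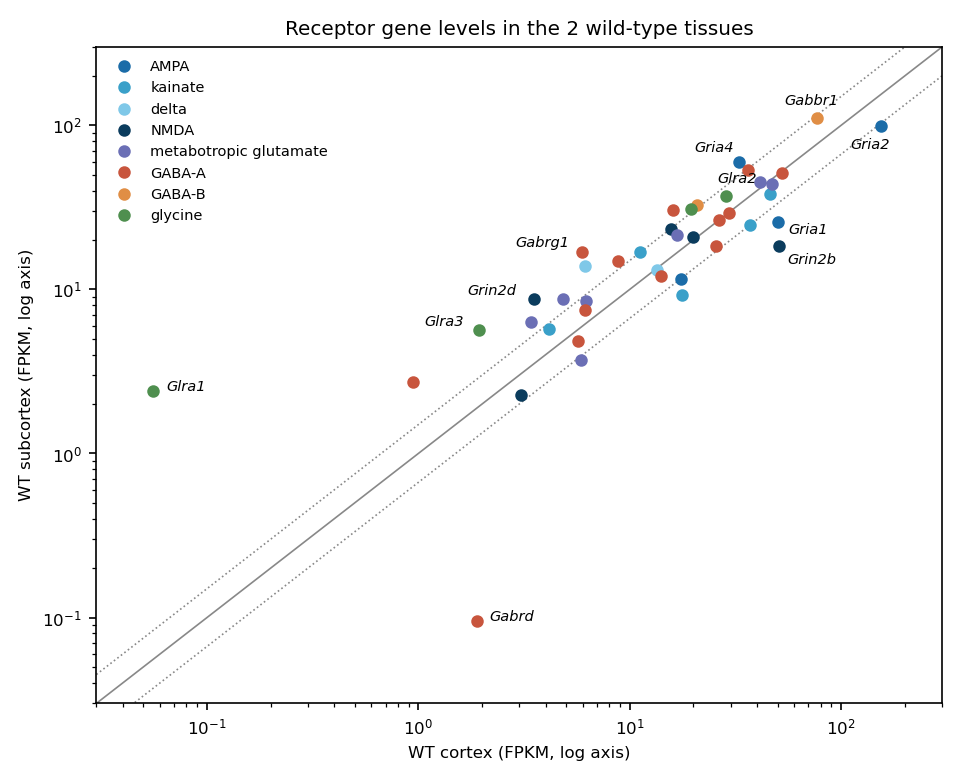
Level of each receptor subunit gene with at least 1 FPKM in at least 1 group, in WT cortex (x axis) and WT subcortex (y axis), both in FPKM on log axes, 1 point per gene coloured by receptor class; the line marks equal levels and the dotted lines a 1.5-fold difference. The points follow the line with many outside the dotted lines, Glra1 and Gabrd stand farthest from it on opposite sides, and Grin2b and Gria1 lie on the cortex side.

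Setting vKO against WT cortex addresses how RNA levels of the tissue differ between the genotype groups, which also differ in Xist and Y-linked genes. The part of sex in the receptor results was not tested. Receptor genes were lower in vKO cortex, most of them genes of glutamate receptors: of 41 tested members 23 fell and 0 rose in the authors' deposited table, which is Cuffdiff output, and at an unadjusted p-value under 0.05 the counts were 26 lower and 0 higher. Over all 13594 tested genes, 11.3% were called lower and 8.15% higher, and 11.3% lower also among genes with at least 1 FPKM. These shares are at a q-value under 0.05, and the share of all genes at the unadjusted threshold was not counted. With a q-value under 0.01, 22 members were lower against 7.28% of all genes, and with at least 1.5-fold as well as a q-value under 0.05, 18 against 6.83%. The median log2 ratio of the tested members was -0.49, against 0.00 over all tested genes, and 37 of 41 ratios were below 0, as were 49.6% of all. Among subunits of glutamate receptors 18 of 23 tested fell, and among those of GABA and glycine receptors 5 of 17, with median ratios of -0.60 and -0.16. The difference between these 2 counts was not tested. The called genes stood at 46.5% to 71.3% of their WT level, and 14 of the 23 had 5e-05, the lowest p-value that the authors' deposited table lists. In whole tissue, fewer cells of a type and less RNA per cell cannot be told apart.

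**Figure D2:**
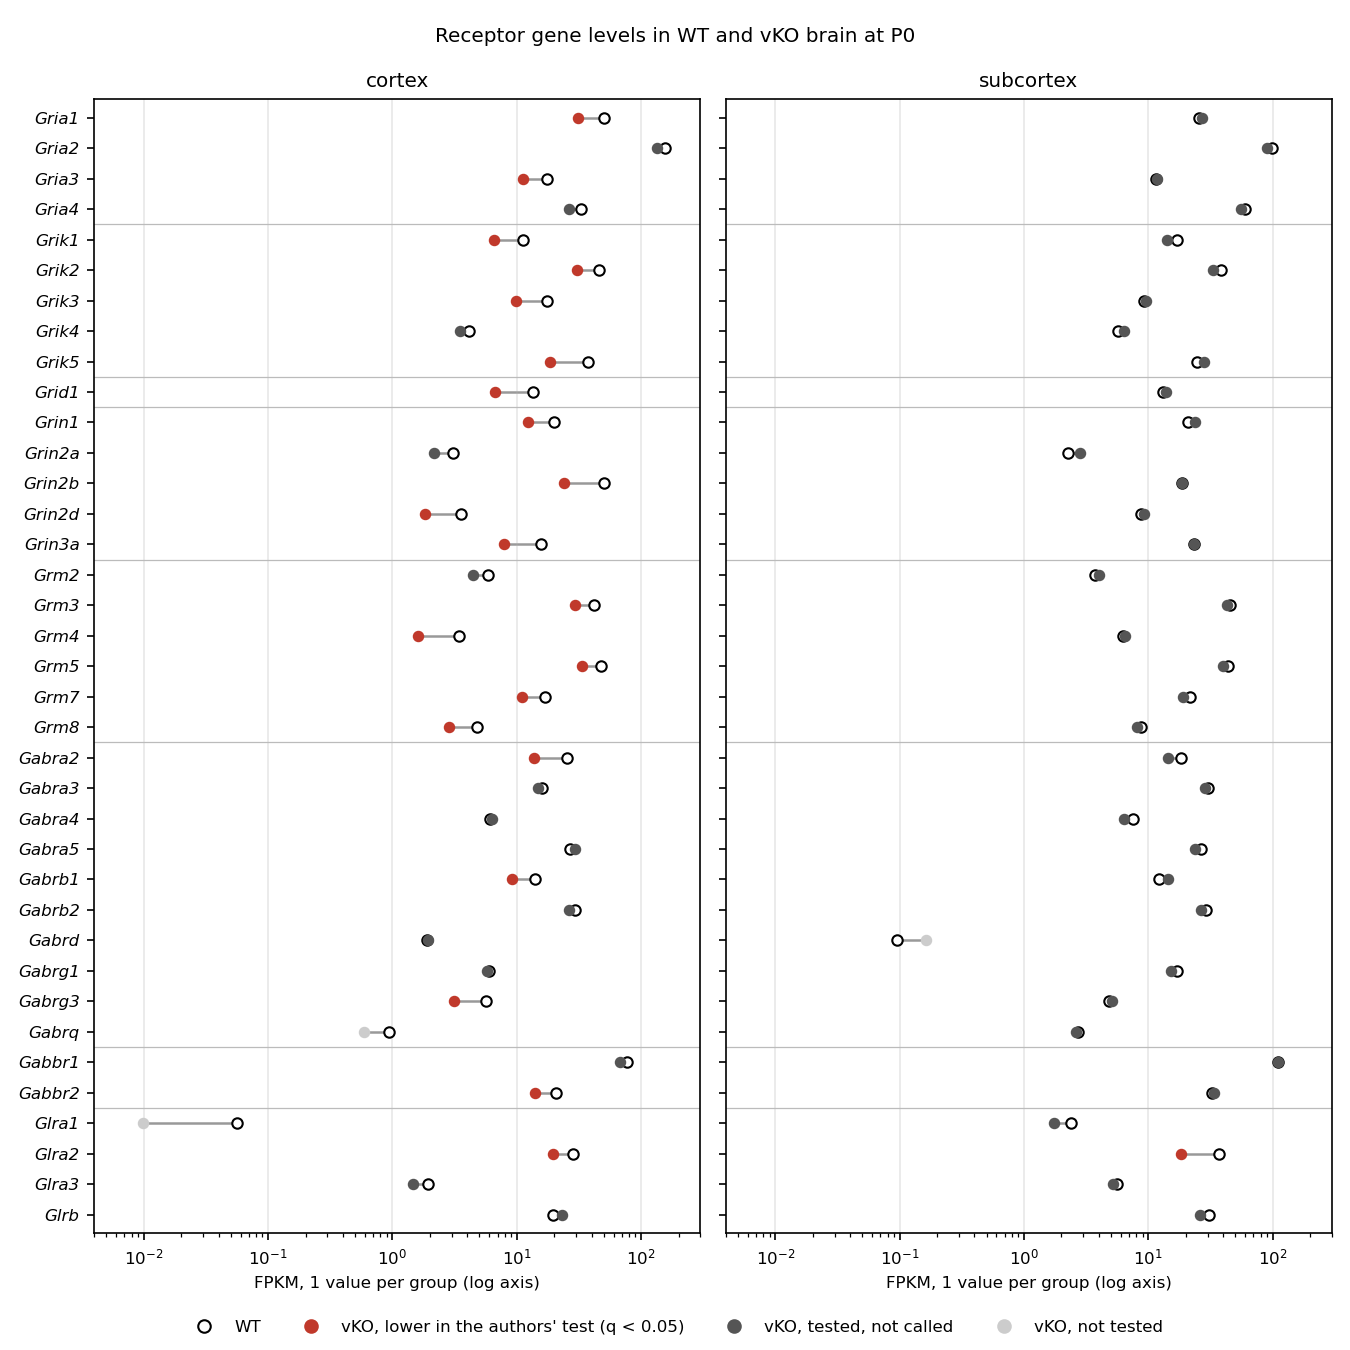
FPKM (log axis) of the receptor subunit genes with at least 1 FPKM in at least 1 group and named in the text, in cortex (left) and subcortex (right), with 1 value per group: open circles are WT, filled circles vKO (red where called lower by the authors, dark grey where tested and not called, light grey where not tested), and horizontal rules separate the receptor classes. In cortex the red circles lie left of their open circles, and in subcortex Glra2 alone is red.

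Of the 5 tested NMDA receptor genes 4 fell. Grin2b, the glutamate-binding subunit that dominates before and around birth (chromosome 6, 135713233 to 136173511, mm10), had 50.6 FPKM in the cortex of WT and 24.1 in that of vKO mice. This was a fall to 47.6% of the WT level (-1.04), and the authors' deposited table gives it a q-value of 0.000806. Grin1, the obligatory glycine-binding subunit whose promoter is shown above, fell from 20.0 to 12.2 FPKM (-0.67). Grin3a, a glycine-binding subunit that lowers calcium entry, fell from 15.7 to 7.96 FPKM (-0.89), and Grin2d from 3.53 to 1.82 (-0.68). Grin2a, the subunit that replaces Grin2b as the brain matures, had 3.05 FPKM against 2.16 and was not called, at a q-value of 0.0532 listed in the authors' deposited table. All 5 tested genes of this class were thus lower in value. Grin1os had 1.40 and 0.826 FPKM and was not called. It overlaps Grin1 on the opposite strand, and no label or header says whether counting used the strand, so reads of the pair may be mixed.

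Of the 5 kainate receptor genes 4 fell. Grik5, a subunit with high affinity for glutamate that needs a partner to form channels (chromosome 7, 25009849 to 25072346), fell from 37.1 to 18.5 FPKM, a log2 ratio of -0.97. Its partners fell too: Grik3 from 17.6 to 9.88 FPKM (-0.78), Grik1 from 11.1 to 6.61 (-0.67) and Grik2 from 46.1 to 30.7 (-0.57). Grik4, the other high-affinity subunit, was not called, at 4.15 and 3.50 FPKM. Summed over the class, kainate receptor genes had 116 FPKM for WT against 69.3 for vKO. Of the delta receptor genes, Grid1 fell from 13.4 to 6.66 FPKM (-0.91).

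AMPA receptor genes were divided. Gria1, the subunit added to synapses in plasticity (chromosome 11, 57011387 to 57330244), fell from 50.3 to 31.2 FPKM (-0.67), and Gria3 from 17.4 to 11.3 (-0.58). Gria2 had 155 FPKM against 135, and Gria4 32.7 against 26.5. The authors' deposited table lists q-values of 0.471 and 0.194 for them. Neither was called. Of the 7 tested metabotropic glutamate receptor genes 6 fell. In group I, which activates phospholipase C, Grm5 fell from 47.3 to 33.7 FPKM (-0.48). Grm3, of group II, which inhibits adenylyl cyclase, fell from 41.4 to 29.2 (-0.49), while its relative Grm2 was not called at 5.90 and 4.43. Group III, found largely on presynaptic terminals, fell in all 3 tested genes: Grm7 from 16.8 to 11.0 (-0.57), Grm8 from 4.82 to 2.85 (-0.60) and Grm4 from 3.42 to 1.59 (-0.77). Grm4 had the lowest level relative to WT of all called members, 46.5%.

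Of 12 tested GABA-A receptor genes 3 fell and 0 rose in cortex, where 11.3% of all tested genes were called lower, and the class median was -0.12. Gabra2, an alpha subunit of the embryonic and adult forebrain (chromosome 5, 70957597 to 71095849), fell from 25.5 to 13.7 FPKM (-0.85). Gabrg3 fell from 5.66 to 3.10 FPKM (-0.70) and Gabrb1 from 14.0 to 9.16 (-0.56). By contrast Gabrb2, at 29.4 and 26.1 FPKM, was not called. Among the other alpha subunits, Gabra5, of extrasynaptic receptors, had 26.6 FPKM in WT and 29.5 in vKO, Gabra3 had 16.0 and 14.7, and Gabra4 had 6.13 and 6.30, none of them called. Gabrg1 at 5.93 and 5.77 FPKM and Gabrd at 1.89 and 1.95 were also not called, and Gabrq, at 0.940 and 0.586, was not tested. For GABA-B, Gabbr2, which couples to the G protein, fell from 20.8 to 14.0 FPKM (-0.54), while its partner Gabbr1, which binds GABA, was not called at 77.3 and 67.4. Of glycine receptors Glra2 fell from 28.4 to 19.7 FPKM (-0.51). Glrb, the beta subunit that binds gephyrin, had 19.6 and 23.1 FPKM and Glra3 had 1.94 and 1.47, and neither was called.

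GABA-A subunit genes lie in clusters, and in 2 of these neighbours got different calls in cortex, while on chromosome 11 none of the 3 tested genes was called. Differences between neighbours were not tested. On chromosome 5, Gabra2 and Gabrb1 fell while Gabrg1 and Gabra4, which flank and separate them, were not called. On chromosome 7, Gabrg3 fell while Gabra5 was not called. The ends of Gabra4 and Gabrb1 overlap on opposite strands in the GENCODE annotation, so reads of the pair may be mixed in part. Gabra5 also overlaps a neighbour of its cluster on the opposite strand, and the same caution holds for it.

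In subcortex the question is the same, for the tissue below the cortex. Glra2 was the 1 member called of 42 tested, and 0 rose, in the authors' deposited table made by Cuffdiff; at an unadjusted p-value under 0.05 the counts were 3 lower and 0 higher. Over all 13735 tested genes 0.262% were called lower and 0.451% higher, and 0.263% lower among genes with at least 1 FPKM. No such share was counted at the unadjusted threshold. Ratios were below 0 for 24 members and for 50.2% of all tested genes. Glra2 (chromosome X, 165129017 to 165327393) had 37.1 FPKM in WT against 18.4 in vKO subcortex, a fall to 49.5% of the WT level with a log2 ratio of -0.98. The authors' deposited table gives it a q-value of 0.0104, the lowest listed there. It was the 1 member called in both tissues, and it lies on the X chromosome, while Xist differed between the groups as given above. The part of that difference in the Glra2 result was not tested. Gabra3 and Gria3, also X-linked, were not called in subcortex, with 30.5 and 28.4 FPKM and with 11.6 and 11.8. The other 41 tested members had log2 ratios between -0.35 and 0.23 and q-values of at least 0.670 in the authors' deposited table. Among them Gabra2 had 18.5 FPKM in WT and 14.3 in vKO.

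**Figure D3:**
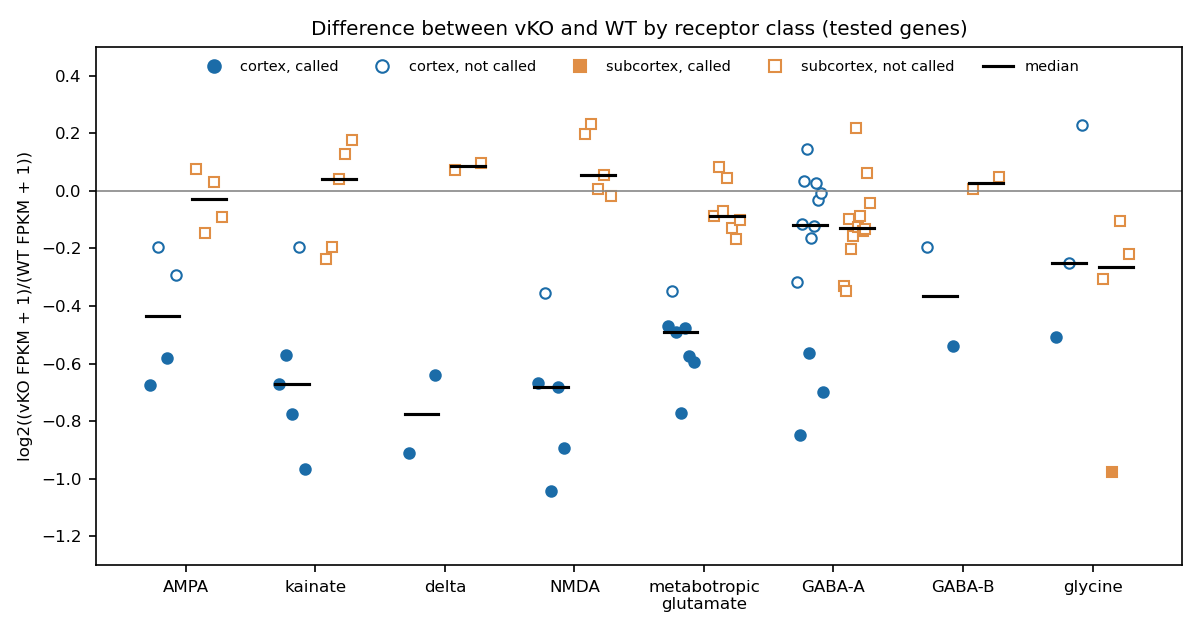
Log2 ratio of vKO over WT (y axis, 1 added to both FPKM values) for each tested receptor subunit gene by class (x axis), as circles for cortex and squares for subcortex, filled where called by the authors, with a bar at the class median. Cortex points of the glutamate classes all lie below 0, 9 of the 12 cortex points of GABA-A are open, and the filled square near -0.98 is Glra2.

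Several genes that fell in cortex had similar values in both groups of subcortex. Grin2b had 18.5 FPKM in WT against 18.6 in vKO subcortex, Grik5 at 24.7 and 28.1, Grid1 at 13.1 and 13.9, Grin3a at 23.4 and 23.1, and Gria1 at 25.8 and 27.2. By class, the median subcortex ratio was 0.06 for NMDA, 0.04 for kainate, -0.03 for AMPA, -0.09 for metabotropic glutamate, -0.13 for GABA-A and -0.26 for glycine receptor genes. The median over all 42 tested members was -0.08, against -0.00 over all tested genes. Whether the difference between the genotypes itself differs between the tissues was not tested, because no replicate values were used and the tables hold no such test. Regional level was set beside the cortex ratios as well. Of members at least 1.5-fold higher in WT subcortex 6 of 12 tested fell in vKO cortex, of those at least 1.5-fold higher in WT cortex 5 of 8, and of the rest 12 of 21. The WT cortex value enters both the grouping and the cortex ratio, so the 2 are not independent. The shares of all genes in such groups were not counted, and no conclusion is drawn.

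None of the following members was called in subcortex. Given as WT and vKO FPKM in subcortex, the AMPA receptor genes Gria2 and Gria4 had 98.9 and 89.4 and 59.6 and 55.9. Among kainate receptor genes, Grik1 had 16.9 and 14.2, Grik2 38.3 and 33.3, Grik3 9.23 and 9.53 and Grik4 5.71 and 6.33. Of the NMDA receptor genes, the obligatory Grin1 had 20.8 and 23.9, Grin2a 2.26 and 2.84 and Grin2d 8.77 and 9.15, and the antisense transcript Grin1os had 1.21 and 1.41. All of these NMDA values were higher in vKO, against lower values in cortex. Among metabotropic glutamate receptors, Grm5 had 43.7 and 39.9, Grm2 3.71 and 3.99 and Grm3 45.2 and 43.1. In group III, Grm4 had 6.31 and 6.53, Grm7 21.6 and 19.1 and Grm8 8.71 and 8.05. For GABA-A receptors, the alpha subunits Gabra4 and Gabra5 had 7.47 and 6.36 and 26.6 and 23.8. The beta subunit gene Gabrb1 had 12.1 and 14.3, and Gabrb2 29.2 and 26.7. The gamma subunit gene Gabrg1 had 17.0 and 15.4, and Gabrg3 4.83 and 5.09. Gabrb1 and Gabrg3, which fell in cortex, thus had the higher value in vKO here. Gabrq had 2.73 and 2.62, and Gabrd, which was not tested, 0.0948 and 0.164. Of the GABA-B genes, Gabbr1 had 111 and 111 and Gabbr2 32.8 and 34.0. Beside Glra2, the glycine receptor genes Glra1 had 2.40 and 1.75, Glra3 5.64 and 5.18 and Glrb 30.7 and 26.3, each lower in value in vKO. In cortex Glra1 was not tested, with 0.0559 FPKM in WT against 0.00985.

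The make-up of a family's transcripts can be given as shares of its summed FPKM, which say nothing of the receptor proteins. Among the 4 GluN2 genes, Grin2b held 87.6% in WT and 84.3% in vKO cortex, although the sum of the family went from 57.7 to 28.5 FPKM. In subcortex it held 60.7% and 59.0%, and Grin2d 28.8% and 29.0%. Grin2b exceeded Grin2a 16.6-fold in WT and 11.1-fold in vKO cortex. The share of Gria2 among AMPA receptor genes was 60.7% in WT and 66.2% in vKO cortex, that of Gria1 19.7% and 15.3%. Among alpha subunits of GABA-A receptors Gabra2 made up 30.7% in WT and 19.3% in vKO cortex, and Gabra5 32.0% and 41.5%. In subcortex the same shares were 18.9% and 16.9% for Gabra2 and 27.2% and 28.2% for Gabra5. Of the summed glycine receptor alpha genes Glra2 held 92.0% in WT cortex against 92.2% for vKO, and 81.9% against 72.3% in subcortex, where Glra3 held 12.5% and 20.4%. The beta subunit Glrb, which was not called in either tissue, stood at 0.689 of the Glra2 level in WT cortex and at 1.17 in vKO cortex, and at 0.828 and 1.43 in subcortex. These shares have no replicate error and were not tested.

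**Figure D4:**
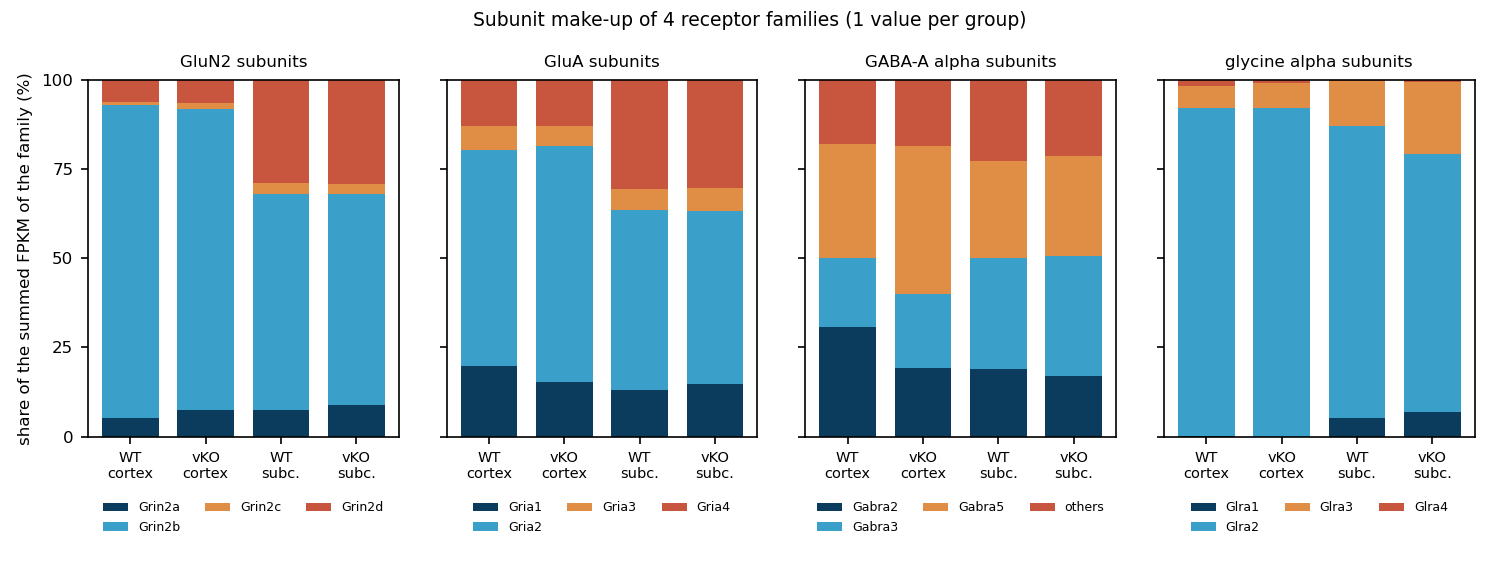
Share (percent, y axis) of each gene in the summed FPKM of its subunit family, for GluN2, GluA, GABA-A alpha (3 genes named and the rest drawn together as others) and glycine receptor alpha genes, with 1 stacked bar per group (WT and vKO, cortex and subcortex). Grin2b fills most of the GluN2 bars of cortex, and the Gabra2 segment is 30.7% in WT and 19.3% in vKO cortex.

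Transcript length moved with the cortex ratios. Across tested genes with an annotated transcript, the Spearman correlation of log2 ratio and length was -0.55 in cortex (12908 genes) and 0.02 in subcortex (13041 genes), and across the tested members it was -0.36 (41 genes) and 0.35 (42 genes). Genes share libraries and normalization, so these are descriptions. Receptor transcripts are long: the median was 5248 bases over tested members and 3180 over all tested genes, and 5720 over the members that fell. Grin2b, with 24060 bases, is the longest of them. Among tested genes of 3989 to 6508 bases, the middle range of the members, 15.7% were called lower and 1.81% higher in cortex, and of the 21 members in that range 10 fell. With the trend of ratios with length and GC content removed, the median of the members was -0.32, and all 23 called genes kept a ratio below 0, from -0.81 for Gabra2 to -0.05. A fall of at least 1.5-fold was then left in 7 of them, against 1.91% of all genes: Gabra2, Grik5 (-0.81), Grik1 (-0.65), Grid1 (-0.65), Grin2b (-0.64), Grm7 (-0.59) and Glra2 (-0.59). The ratio of 13 of the 23 shrank by over 1.5 times, among them Grin2b, Grik3 (from -0.78 to -0.30), Grin3a (-0.89 to -0.47), Grin2d (-0.68 to -0.35), Grm4 (-0.77 to -0.47), Grm5 (-0.48 to -0.23), Gria1 (-0.67 to -0.44), Gabrb1 (-0.56 to -0.32) and Gabbr2 (-0.54 to -0.22). In subcortex Glra2 had -0.84 with the trend removed and still passed 1.5-fold, as did 0.199% of all genes. What lies behind the trend was not tested.

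**Figure D5:**
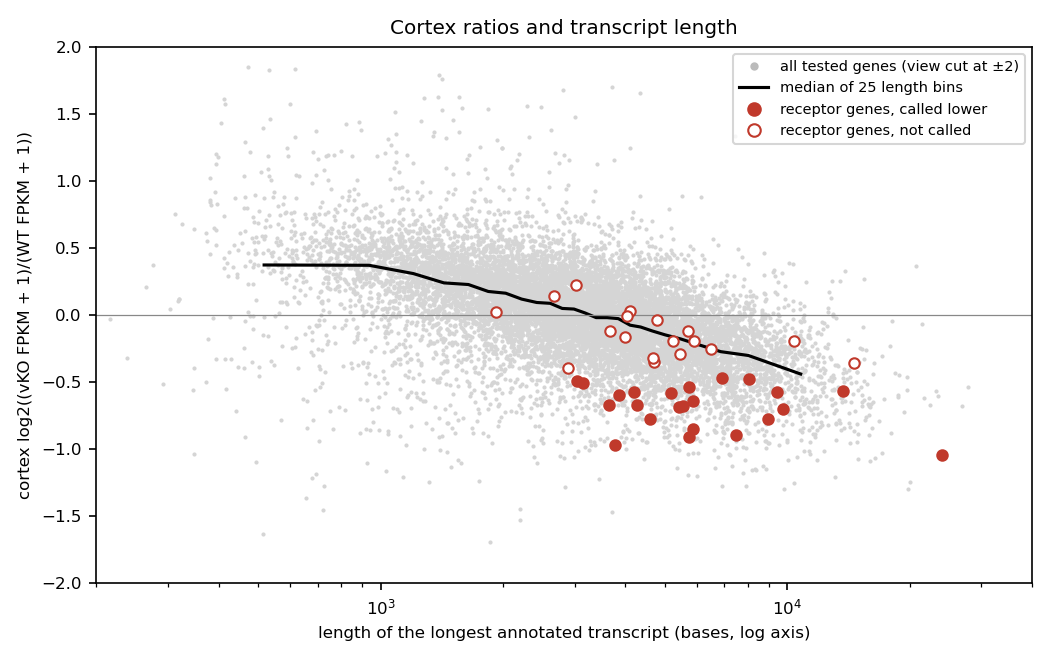
Cortex log2 ratio of vKO over WT (y axis) against the length of the longest annotated transcript in bases (x axis, log scale), with grey points for all tested genes, a black line for the median of 25 length bins, and red circles for receptor genes, filled where called lower. The line falls with length, and the filled circles lie below it over the range where it is drawn.

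Other genes of the same synapses were read from lists. Over all tested genes in cortex 11.3% were called lower and 8.15% higher, the shares to set beside these counts of calls. Shares of all genes at an unadjusted p-value under 0.05 were not counted. Of 14 auxiliary subunits of AMPA and kainate receptors, which set their traffic and gating, 8 fell and 0 rose in cortex in the authors' deposited table by Cuffdiff (8 and 0 at an unadjusted p-value under 0.05), with a median ratio of -0.48. Neto1, which modulates kainate receptors, fell from 17.6 to 7.36 FPKM (-1.15), Shisa7 from 15.5 to 6.18 (-1.20), Shisa6 from 5.06 to 1.94 (-1.04) and Shisa9 from 6.23 to 3.28 (-0.76). Of 10 tested anchors and adaptors 3 fell and 1 rose. Nlgn2, the neuroligin of inhibitory synapses, fell from 31.8 to 17.3 FPKM (-0.84), and the scaffold Grip2 from 9.08 to 5.38 (-0.66), while Gabarap, which binds GABA-A receptors, rose from 110 to 157 (0.51). Gphn, encoding gephyrin, was listed at 0 in vKO cortex and in WT subcortex and was not tested in either. Its status was HIDATA in both tissues, the Cuffdiff mark for a locus with too many fragments. These zeros are therefore not read as levels.

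Of 10 tested carriers of the transmitters 3 fell and 0 rose in cortex (5 and 0 at an unadjusted p-value under 0.05). Over all tested genes 11.3% were called lower there and 8.15% higher. The glutamate transporter Slc1a2 fell from 25.1 to 15.9 FPKM (-0.62) and Slc32a1, which loads GABA and glycine into vesicles, from 14.3 to 10.3 (-0.44). Of 7 enzymes 2 fell and 0 rose, both of them making GABA from glutamate: Gad1 with 39.9 and 26.5 FPKM and Gad2 with 18.5 and 11.3 (4 lower and 1 higher at an unadjusted p-value under 0.05). Slc12a5, the carrier that exports chloride from maturing neurons, fell from 18.3 to 11.0 FPKM (-0.68), while Slc12a2, which imports chloride, was not called at 15.8 and 13.9. The ratio of Slc12a5 to Slc12a2 was 1.15 in WT and 0.795 in vKO cortex, and 3.75 and 3.27 in subcortex. In subcortex 0 genes of these 5 lists were called in the authors' deposited table by Cuffdiff. Over all tested genes 0.262% were called lower there and 0.451% higher, and for lists this short 0 calls is near those shares. At an unadjusted p-value under 0.05 there was 1 lower auxiliary subunit, 1 higher carrier and 1 higher enzyme.

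With the trend of length and GC content removed, the cortex medians of the lists were -0.42 for auxiliary subunits, -0.12 for anchors, -0.25 for carriers and -0.18 for enzymes. Gabarap then had 0.25, Slc12a5 -0.35, Slc1a2 -0.34, Grip2 -0.35, Nlgn2 -0.51 and Shisa6 -0.62, each a ratio smaller by over 1.5 times.

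Pan-neuronal genes stood beside these, with the same shares of 11.3% lower and 8.15% higher over all tested genes in cortex. Of 8, 0 were called in cortex by Cuffdiff in the authors' deposited table (1 lower and 1 higher at an unadjusted p-value under 0.05), with a median ratio of -0.01 and a summed level of 2109 FPKM in WT and 2308 in vKO. Tubb3, a neuronal tubulin, had 1206 and 1377 FPKM, Map2, of dendrites, 269 and 238, and Rbfox3, a nuclear marker of neurons, 14.9 and 16.1. In subcortex 0 of the 8 were called as well, with 0 at an unadjusted p-value under 0.05 in either direction, and the median was -0.01. Over all tested genes of subcortex 0.262% were called lower and 0.451% higher, so 0 calls among 8 genes is near those shares. No conclusion on the number of neurons is drawn in either tissue.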

How the data were processed

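The submitters' processing notes name HISAT2 2.0.1, Cufflinks 2.2.1, Cuffdiff and build mm10, with no order of steps. The authors deposited 1 table per tissue, with an FPKM per gene and group over its 3 replicates, and a p-value and q-value of their own test, per the file headers. Columns headed W were read as WT and M as vKO. No replicate values were used, so no test was made here, and calls are the authors' q-values under 0.05 among genes marked as tested. Genes with few reads were not tested, and neither was Gphn, which was marked HIDATA.

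Members were matched by symbol, and all 54 were found in GENCODE M21 (the same build), which gave positions and the longest transcript. The trend with length and GC content was taken out with pandas 2.3.3: genes were put in 100 bins of both, and each bin's median ratio was subtracted, tested on simulated data. Receptors with at least 1 FPKM in at least 1 group are named with their values, as are up to 4 called genes per list and direction, the lowest q-values first, or otherwise the 2 with the highest FPKM. Some members and list genes are not reported here by name and are counted only in totals. Members and lists were chosen with earlier results of these data known. p-values measure the spread between libraries, which the labels do not tie to single animals.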

Additional observations from a re-analysis of the deposited data

How the results depend on the processing

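No paired analysis was possible because the tables hold 1 value per group, and leaving out replicates, a replicate block and count-based tests were not run for the same reason. The 23 members called lower in cortex numbered 22 at a q-value under 0.01 (all but Grm5), 18 with at least 1.5-fold in the FPKM ratio and 23 with a minimum of 1 FPKM. Chosen after seeing the data, a minimum of 1.5-fold with the length and GC trend removed left 7, and leaving out X-linked members left 21. In subcortex the 1 called member became 0 at a q-value under 0.01, which no gene of that table reaches, and 0 without X-linked members. By Cuffdiff 3 members were lower there at an unadjusted p-value under 0.05. The cortex median of -0.49 was -0.55 with 0.1 added in place of 1, -0.50 with the median of all tested genes subtracted, -0.32 with the trend removed, -0.48 without X-linked members and -0.50 without Grin1os. The subcortex median of -0.08 was -0.028 with the trend removed and -0.086 without Grin1os. The median log2 ratio of WT subcortex over WT cortex, 0.25 over 43 members, was 0.28 with 0.1 added and 0.20 with the median of all genes tested in both tables subtracted. No called member changed sign under these scalings. An unknown depth limits what can be said of genes under 1 FPKM.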
